A study of Mus musculus with 4 samples.

Results

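Cytochromes P450 of families 1 to 4, UDP-glucuronosyltransferases (UGTs) of families 1 and 2 and cytosolic sulfotransferases (SULTs) were followed in the body of the mouse stomach after an injuring dose of a drug. Genes were chosen by symbol alone, as every row named Cyp1, Cyp2, Cyp3 or Cyp4 plus a letter, Ugt1 or Ugt2, or Sult plus a digit. The rule found 145 of the 52125 rows, and 24 rows with -ps in the name, which marks pseudogenes, were dropped, which left 121 genes. They comprised 3 Cyp1, 49 Cyp2, 9 Cyp3 and 21 Cyp4 rows, 9 Ugt1 and 9 Ugt2 rows, and 21 Sult rows. GENCODE M21 on GRCm38 listed 120 of the symbols, and Cyp2c44 stands there as Cyp2c23. One of the rows, Cyp4x1os, is an antisense RNA and encodes no enzyme.

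RNA sequencing covered the stomach corpus of 4 wild-type C57BL/6 mice aged 6 to 8 weeks, all taken at 48 hr, with 1 mouse per library. In the HDT group, 2 mice had been given 1 intraperitoneal injection of HDT at 5 mg per 20 g of body weight. The control group of 2 mice is named vehicle in the titles and untreated in the protocol, so an injection of carrier is not certain. HDT commonly stands for high-dose tamoxifen in studies of stomach injury, but the labels do not spell it out. The labels name neither the sex nor any pooling of animals, and all 4 libraries held transcripts of the Y chromosome (Ddx3y at 23.6 to 32.3 CPM, read counts scaled to a common library size).

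P450 enzymes sit in the endoplasmic reticulum, bind haem and oxidise drugs, steroids, fatty acids and retinoids with electrons passed on by the reductase Por. UGTs then attach glucuronic acid, and SULTs attach sulfate, which makes the products more soluble and easier to excrete. The liver and the small intestine are the best known sites of these reactions. Tamoxifen is a substrate of P450 enzymes of the 2D and 3A subfamilies. Tamoxifen or its oxidised products are substrates of both kinds of conjugating enzyme. Families 1 to 3 are best known for foreign compounds, whereas family 4 mostly hydroxylates fatty acids and eicosanoids.

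The 4 libraries held 41536686 to 42674985 reads. Levels are given in CPM after TMM scaling, which corrects for the share of reads that a few abundant genes take. That share differed between the groups: the 20 most abundant genes took 40.7% and 42.8% of the reads in the vehicle libraries and 22.3% and 22.0% in the HDT libraries. Genes of parietal, chief and pit cells, which define the corpus, were present in all libraries. Summed over 9 parietal genes the level was 12420 and 13590 CPM in vehicle and 2085 and 1685 CPM in HDT, and 7 of the 9 fell. Over 5 chief cell genes it was 141900 and 174400 CPM against 40270 and 29600 CPM, and 3 of 5 fell. All 5 pit cell genes fell. Of 5 fibroblast genes 4 rose, with sums of 821, 799, 1451 and 1622 CPM, and of 5 macrophage genes 3 rose, with sums of 119, 129, 305 and 241 CPM. With the values as deposited, without TMM scaling, only 1 of the 5 pit cell genes fell, against 6 parietal and 3 chief cell genes. At those values all 5 fibroblast and all 5 macrophage genes rose. Vehicle replicate 2 stood apart in 6 pancreatic enzyme genes, with 154 CPM against 9.51 to 26.1 CPM in the other libraries. Marker genes of several cell types thus moved with the comparison, and their part in the results below was not tested. In bulk tissue fewer cells of a type cannot be told apart from less RNA per cell.

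Of the 121 genes, 37 were listed at 0 in all 4 libraries and 29 others were seen with fewer than 10 reads in each library. A count of 0 allows up to 3 reads, or 0.0852 and 0.0871 CPM in the vehicle libraries and 0.0583 and 0.0594 CPM in the HDT libraries, counting error only. Of the detected genes, those with at least 10 reads in 1 or more libraries, 48 passed the filter on low counts and were tested, and 7 did not pass it. The genes at 0 included 7 of 8 Cyp4a genes, which encode the lauric acid hydroxylases of liver and kidney, 6 of 9 Cyp3a genes, 7 of 9 Sult2 genes and 5 of 15 Cyp2c genes. Abundant liver enzymes below this level were Cyp1a2, with 0, 0, 0 and 1 reads, and Cyp2c29, with 1, 2, 7 and 6 reads. Library values are given throughout in the order vehicle replicates 1 and 2, then HDT replicates 1 and 2. The list of 10 liver markers held 6 tested genes, of which 1 rose, 4 fell and 1 was not called. At the deposited scaling 2 of them rose and 2 fell. Those not tested were Fgb, with 0, 0, 1 and 3 reads, and Mup20, with 0, 0, 0 and 4 reads. Serpina1c, with 0, 1, 4 and 8 reads, and Mup3, with 1, 1, 1 and 2 reads, were not tested either. Serpina1a, without a call, was at 0.341, 0.348, 0.603 and 0.476 CPM. Alb lay between 0.408 and 1.17 CPM over the 4 libraries. Higher levels were those of Apoa1, at 1534, 1379, 86.6 and 82.2 CPM, and Ttr, at 106.6, 101.4, 30.6 and 25.1 CPM. The liver marker that rose was Ahsg, at 2.16, 2.06, 7.23 and 4.56 CPM (log2 fold change 1.44, limma adjusted p = 0.0018).

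Expression was concentrated in a few enzymes. Compared per length, in RPKM (CPM divided by the kilobases of exon) averaged over the 4 libraries, Cyp2c65 was the highest at 274 RPKM. Next came Sult1c2 at 240.5 RPKM and Cyp2s1 at 209 RPKM, followed by Ugt2b34 at 95.0 RPKM, Sult1b1 at 70.4 RPKM and Sult1d1 at 69.0 RPKM. The other 4 of the first 10 were Ugt1a9, Ugt1a1, Ugt1a5 and Ugt1a2 at 56.8 to 57.4 RPKM, which share most of their reads, as described below. In the vehicle libraries Cyp2s1 alone made up 62.5% of the summed CPM of the Cyp2 genes, and Ugt2b34 made up 90.6% of that of the Ugt2 genes. These shares are of reads and are not corrected for length, and Cyp2s1 has 4938 exon bases against 1928 for Cyp2c65. Cyp2s1 is typical of epithelia that face the outside, and Cyp2c65 is known from the gut.

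**Figure D1:**
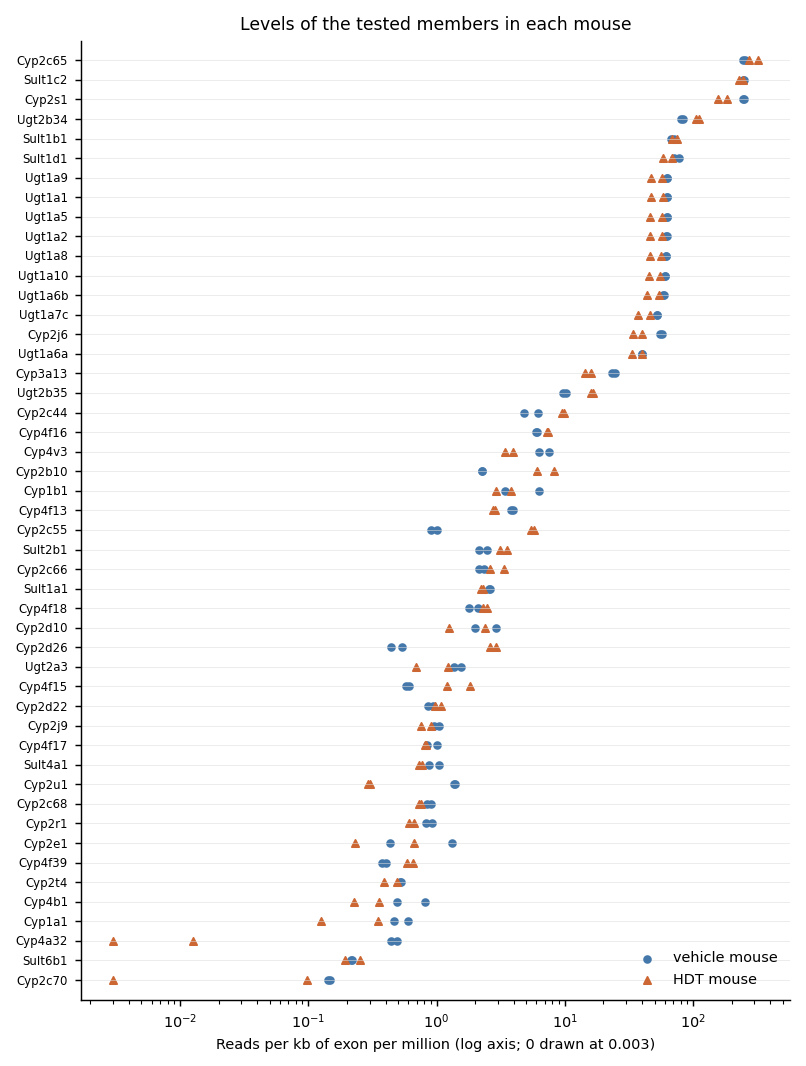
Level of each of the 48 tested genes in RPKM on a log axis, in each of the 4 mice, with genes in order of their mean and 0 drawn at the left edge. Levels run from below 0.1 to above 100, and the 6 highest genes are Cyp2c65, Sult1c2, Cyp2s1, Ugt2b34, Sult1b1 and Sult1d1.

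HDT was compared with vehicle by limma on log2 values over 18285 genes, with p-values adjusted by the Benjamini-Hochberg method. Of the 48 tested genes, 10 rose, 9 fell and 29 did not pass the threshold of 0.05. The share called, 39.6%, was close to the 37.7% of all tested genes, of which 18.4% rose and 19.3% fell. By size, 4 genes rose at least 2-fold, 8.33% of those tested against 4.07% of all genes, and 3 fell at least 2-fold, 6.25% against 4.5%. Both HDT libraries lay above both vehicle libraries for 14 genes and below them for 29, which left 5 genes with overlapping groups. Over all genes these shares were 35.3% above and 35.5% below. The median log2 fold change of the 48 genes was −0.27, against −0.00 over all genes. The 9 Ugt1a genes share most of their reads and were all among the 29. With that locus counted once, by Ugt1a10, 10 of 40 genes rose and 8 fell (45.0% called), the groups were separate upward in 14 and downward in 21, and the median was −0.23. Used as deposited, without TMM scaling, the values gave 25 rises and 3 falls with a median of 0.26, where 62.8% of all genes rose and 5.46% fell with a median of 0.53, so the direction of small changes rests on the scaling. Without HDT replicate 2, the TMM-scaled values gave 8 rises and 20 falls, and 8 of the further falls were Ugt1a genes that share their reads.

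**Figure D2:**
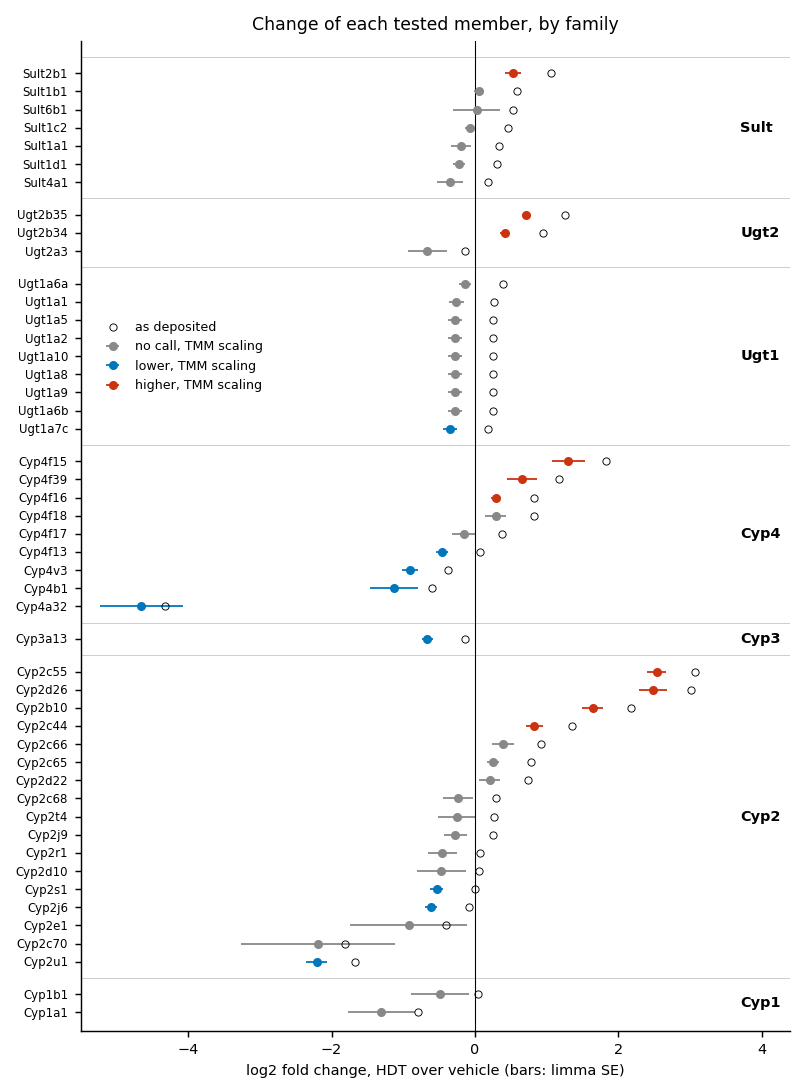
Log2 fold change of HDT over vehicle for each of the 48 tested genes, in rows by family, with filled points after TMM scaling coloured by call, bars of 1 standard error, and open points further right for the values as deposited. Rises of at least 2-fold are those of Cyp2c55, Cyp2d26, Cyp2b10 and Cyp4f15, and the largest fall is that of Cyp4a32.

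The largest rises were those of 3 members of the Cyp2 family that are related to the liver's drug oxidases. Cyp2c55, which hydroxylates arachidonic acid and is induced by drugs in liver, lies on chromosome 19 at 39007019 to 39042693. It was at 1.82 and 2.0 CPM in vehicle and 11.4 and 10.9 CPM in HDT. Both HDT mice lay far above both vehicle mice, and the log2 fold change was 2.53 (SE 0.13, limma adjusted p = 9.4e-06). Cyp2d26, of the subfamily that holds the human drug oxidase CYP2D6, lies on chromosome 15 at 82790101 to 82794294 and was at 0.966, 0.784, 4.71 and 5.23 CPM. The groups were as clearly apart, with a log2 fold change of 2.48 (SE 0.19, limma adjusted p = 5.6e-05). Cyp2b10, the classical target of the nuclear receptor CAR in liver, lies on chromosome 7 at 25897620 to 25926624 and was at 4.77, 4.76, 17.4 and 12.8 CPM. The vehicle mice were nearly equal, the HDT mice less so, and the log2 fold change was 1.64 (SE 0.15, limma adjusted p = 0.00013). These calls held when any 1 of the 4 mice was left out and at every scaling tried. Of the exon bases of Cyp2c55 3.2% overlap Gm23800, a miRNA model on the opposite strand with 2, 5, 23 and 17 reads.

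Even after the rise, Cyp2c55 at 5.6 RPKM in the HDT group stayed far below its neighbour Cyp2c65 at 297.5 RPKM. That gene (chromosome 19, 39061015 to 39093944) was at 493, 470, 528 and 619 CPM. Both HDT libraries exceeded both vehicle libraries, which lay closer together, and the log2 fold change of 0.25 just missed the threshold (SE 0.09, limma adjusted p = 0.055). It was called higher with DESeq2 size factors (adjusted p = 0.047), upper-quartile scaling (0.034), no low-count filter (0.03), DESeq2's own test (0.033), the values as deposited (2.3e-05, with a log2 fold change of 0.78) and without HDT replicate 1 (0.0038). Cyp2c66, which follows it on the chromosome and shares 19.5% of its 50-base words with the far more abundant Cyp2c65, was at 4.18, 4.53, 5.06 and 6.48 CPM (log2 fold change 0.39, limma adjusted p = 0.083). Cyp2c44, an arachidonic acid epoxygenase further along the chromosome (44005022 to 44029208), rose from 11.8 ± 2.09 to 20.8 ± 0.638 CPM (SD, n = 2), with a log2 fold change of 0.83 (limma adjusted p = 0.0014). Of the 15 Cyp2c genes of this cluster 6 were tested, 2 rose and 4 were not called, and the 9 untested genes were at 0 or under 10 reads in each library.

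Promoters of the 3 genes with the largest rises are shown with that of Cyp2c65, the abundant neighbour without a call. Each is the 250 bases before the start of the transcript in RefSeq (GRCm38.p6), read 5′ to 3′ on the strand of the gene. Capitals mark GCGTG or its reverse complement CACGC, the core bound by the aryl hydrocarbon receptor (AHR) with ARNT.
Cyp2c55, chr19:39006769-39007018, plus strand: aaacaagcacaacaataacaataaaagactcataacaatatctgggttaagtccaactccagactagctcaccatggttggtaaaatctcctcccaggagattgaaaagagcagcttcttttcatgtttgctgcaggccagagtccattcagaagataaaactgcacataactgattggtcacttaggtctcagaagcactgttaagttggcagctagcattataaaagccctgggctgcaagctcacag
Cyp2d26, chr15:82794246-82794495, minus strand: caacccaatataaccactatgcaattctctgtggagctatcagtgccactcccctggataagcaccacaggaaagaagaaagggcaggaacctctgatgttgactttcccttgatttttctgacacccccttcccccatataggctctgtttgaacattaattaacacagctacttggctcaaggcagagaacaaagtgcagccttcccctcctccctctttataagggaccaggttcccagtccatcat
Cyp2b10, chr7:25897408-25897657, plus strand: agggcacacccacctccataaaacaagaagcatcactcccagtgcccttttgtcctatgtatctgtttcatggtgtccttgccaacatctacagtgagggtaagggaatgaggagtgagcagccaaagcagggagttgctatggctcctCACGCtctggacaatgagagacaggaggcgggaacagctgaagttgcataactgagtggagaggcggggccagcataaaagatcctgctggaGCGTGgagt
Cyp2c65, chr19:39060756-39061005, plus strand: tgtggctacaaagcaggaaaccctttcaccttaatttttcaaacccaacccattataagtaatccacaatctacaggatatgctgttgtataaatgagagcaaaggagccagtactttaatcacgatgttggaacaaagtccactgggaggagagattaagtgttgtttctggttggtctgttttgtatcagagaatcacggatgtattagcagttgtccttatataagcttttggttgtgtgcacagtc
The core stands at 2 places in the window of Cyp2b10 and in none of the other 3. RefSeq held 111 such windows for 101 of the 121 genes, and 44 for 42 of the 48 tested genes. GCGTG on either strand occurred in 29.5% of the windows of tested genes and in 28.2% of all 32841 windows of the genome. It was in 4 of 10 windows of genes that rose and in 1 of 8 of genes that fell. TGACNNNGC, the core of the antioxidant response element bound by NRF2, was in 2.27% of the windows of tested genes and 10.2% of all windows. The full oestrogen receptor palindrome and the full HNF1 palindrome, searched as exact letters on both strands, were in 0.0213% and 0.00913% of all windows and in 0 of those of the 121 genes, which speaks only of these letters in these windows.

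Other Cyp2 genes fell. Cyp2u1, a hydroxylase of long-chain fatty acids (chromosome 3, 131288441 to 131303227), was at 7.21 and 7.35 CPM in vehicle and 1.59 and 1.53 CPM in HDT. Replicates were nearly equal and the groups far apart, with a log2 fold change of −2.21 (SE 0.15, limma adjusted p = 2.5e-05), and the fall held without any 1 mouse and at the deposited scaling. Of its exon bases 10.5% overlap the antisense gene 4930534D22Rik, which had 18, 17, 9 and 3 reads. Cyp2j6, an epoxygenase of the Cyp2j group, was at 200.1, 206.5, 122 and 144.5 CPM, a log2 fold change of −0.61 (limma adjusted p = 0.00099). Cyp2s1, the most abundant P450 by read count, was at 1237, 1204, 776 and 913 CPM, a log2 fold change of −0.54 (limma adjusted p = 0.0024). For both genes the HDT mice lay below the vehicle mice and differed more from each other than the vehicle mice did. At the deposited scaling neither was called, at −0.08 and −0.00. Of the 17 tested Cyp2 genes, 4 rose, 3 fell and 10 were not called. Summed over the family, vehicle mice had 1954 ± 34.4 CPM and HDT mice 1626 ± 177 CPM (SD, n = 2), a log2 ratio of −0.27 that was 0.27 at the deposited scaling.

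Among the Cyp2 genes without a call was Cyp2d22, often named as the mouse counterpart of CYP2D6, at 3.32, 3.66, 3.81 and 4.24 CPM (log2 fold change 0.20, limma adjusted p = 0.32). It was called higher at the deposited scaling, at 0.73. Cyp2e1, which oxidises ethanol and other small molecules in liver and fat, was at 2.84, 0.929, 1.44 and 0.495 CPM. The groups overlapped, with replicate 1 above replicate 2 in each (log2 fold change −0.93, limma adjusted p = 0.45). The fat cell gene Adipoq had the same order of libraries in each group, at 1.93, 0.958, 1.69 and 0.456 CPM, as did Plin1, whereas Cidec and Fabp4 did not; the 4 fat cell genes summed to 83.9, 70.5, 49.0 and 62.1 CPM, and their part in the Cyp2e1 values was not tested. With the replicate number as a block, Cyp2e1 was called lower (limma adjusted p = 0.036).

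The Cyp1 genes, the textbook targets of AHR, were not called. Cyp1a1 (chromosome 9, 57687928 to 57703824) was at 1.68, 1.31, 0.35 and 0.971 CPM from 59, 45, 18 and 49 reads. Both HDT libraries were below both vehicle libraries, with replicate 1 the lower, and the log2 fold change of −1.31 had a standard error of 0.47 (limma adjusted p = 0.07). Without HDT replicate 2 it was called lower, at −2.02 (limma adjusted p = 0.0036). Cyp1b1, which hydroxylates oestradiol (chromosome 17, 79701537 to 79715061), was at 37.0, 20.1, 17.0 and 22.2 CPM. The groups overlapped, and the log2 fold change of −0.49 (limma adjusted p = 0.45), which was 0.05 at the deposited scaling, became −0.93 without vehicle replicate 2 (adjusted p = 0.01). The smooth muscle genes Acta2, Myh11 and Des had the same order of libraries, with Acta2 at 923, 649, 552 and 751 CPM, and with Actg2 they summed to 2168, 1522, 1338 and 1960 CPM and all missed the limma threshold, and their part in the Cyp1b1 values was not tested.

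Cyp3a13 was the only Cyp3 gene above trace level, with 99.7% or more of the family's CPM in each group. It is the member of the Cyp3a group known outside the liver and lies on chromosome 5 at 137892932 to 137921619. It was at 73.3 and 69.1 CPM in vehicle and 42.2 and 47.6 CPM in HDT. The groups were apart by several times the gap within them, with a log2 fold change of −0.67 (SE 0.08, limma adjusted p = 0.00038) that was −0.14 and not called at the deposited scaling. Cyp3a11, the main Cyp3a enzyme of mouse liver and intestine, had 0, 0, 1 and 10 reads and was not tested. Its reads lay in HDT replicate 2, as did those of Sult6b2, with 0, 1, 0 and 14 reads. The same library had 13 reads of the intestinal brush border enzyme Sis, which had 0 in the other libraries, and Alpi at 1.76 CPM against 0.331 to 0.348 CPM. Of the 7 intestinal genes listed, 3 were tested and 1, Anpep, rose. The 7 summed to 197, 239.7, 491 and 360 CPM, of which Anpep made up 96.0%. Cdx2 had 0, 0, 0 and 2 reads, Mep1a 0, 0, 1 and 0 reads and Cdx1 1, 1, 0 and 1 reads. The part of intestinal cells in the Cyp3a11 and Sult6b2 reads was not tested.

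The Cyp4 genes, which hydroxylate fatty acids at the end of the chain, both rose and fell. Of those tested 77.8% were called, against 37.7% of all tested genes. Of 9 tested, 3 rose, 4 fell and 2 were not called, and the rises numbered 1 without vehicle replicate 1, without HDT replicate 2 or with the replicate block and 2 without either other mouse. The fall in reads was steepest for Cyp4a32 (chromosome 4, 115600969 to 115621602), with 24 and 26 reads in vehicle and 1 and 0 in HDT. The vehicle level was 73.2 times the HDT level with an exact 95% counting interval of 12.5 to 2950, which covers counting error only (limma adjusted p = 0.00057). Of its 50-base words 43.8% also occur in other genes, 32.6% in Cyp4a10 and 24.1% in Cyp4a31, both listed at 0. Whether its reads belong in part to a near-identical copy was not tested. Cyp4v3, counterpart of a human gene for a retinal fatty acid hydroxylase, was at 24.1, 28.7, 15.1 and 13.0 CPM, a log2 fold change of −0.91 (limma adjusted p = 0.00057). It shares 8.2% of its exon bases with Gm45753 on the same strand, which had 239, 292, 211 and 163 reads. Cyp4b1, which activates several plant and lung toxins, was at 1.1, 1.83, 0.797 and 0.515 CPM, a log2 fold change of −1.13 (limma adjusted p = 0.031). That call was lost without vehicle replicate 2, at −0.77 (limma adjusted p = 0.15), and without HDT replicate 2, at −0.82 (adjusted p = 0.13).

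The Cyp4f genes of the leukotriene and fatty acid hydroxylases, apart from Cyp4f18, lie in a cluster on chromosome 17, where 3 rose and 1 fell of 5 tested. Cyp4f15 (32685627 to 32703352) rose from 1.39 and 1.31 CPM to 2.74 and 4.12 CPM, a log2 fold change of 1.30 (SE 0.23, limma adjusted p = 0.003). The HDT mice differed by more than the vehicle mice, and both lay above them. Cyp4f16 was at 18.2, 18.5, 22.4 and 22.7 CPM, with tight replicates and a log2 fold change of 0.30 (limma adjusted p = 0.015). The call of Cyp4f16 was lost without vehicle replicate 1 (0.28, adjusted p = 0.069), without HDT replicate 2 (0.28, 0.057) and with the replicate block (adjusted p = 0.057). Cyp4f39, which makes skin barrier lipids, had a log2 fold change of 0.65 (1.12 ± 0.058 against 1.78 ± 0.149 CPM, SD, n = 2; limma adjusted p = 0.039), and its call was lost when any 1 of the 4 mice was left out, at 0.57 to 0.74 (adjusted p = 0.077 to 0.16). In the same cluster Cyp4f13 fell, at 16.8, 17.4, 12.6 and 12.3 CPM (log2 fold change −0.46, limma adjusted p = 0.0035), but had a log2 fold change of 0.07 at the deposited scaling. Cyp4f17, also in the cluster, was not called (log2 fold change −0.16, limma adjusted p = 0.50). Cyp4f18, the neutrophil hydroxylase of leukotriene B, lies outside the cluster, on chromosome 8 at 71988482 to 72009626. Cyp4f18 was not called (log2 fold change 0.29, limma adjusted p = 0.17) and shares exon bases with Zfp961 on the opposite strand. All Cyp4 genes together reached 73.4 ± 4.53 CPM in the vehicle mice and 62.3 ± 0.583 CPM in the HDT mice (SD, n = 2), a log2 ratio of −0.24 that was 0.30 at the deposited scaling.

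**Figure D3:**
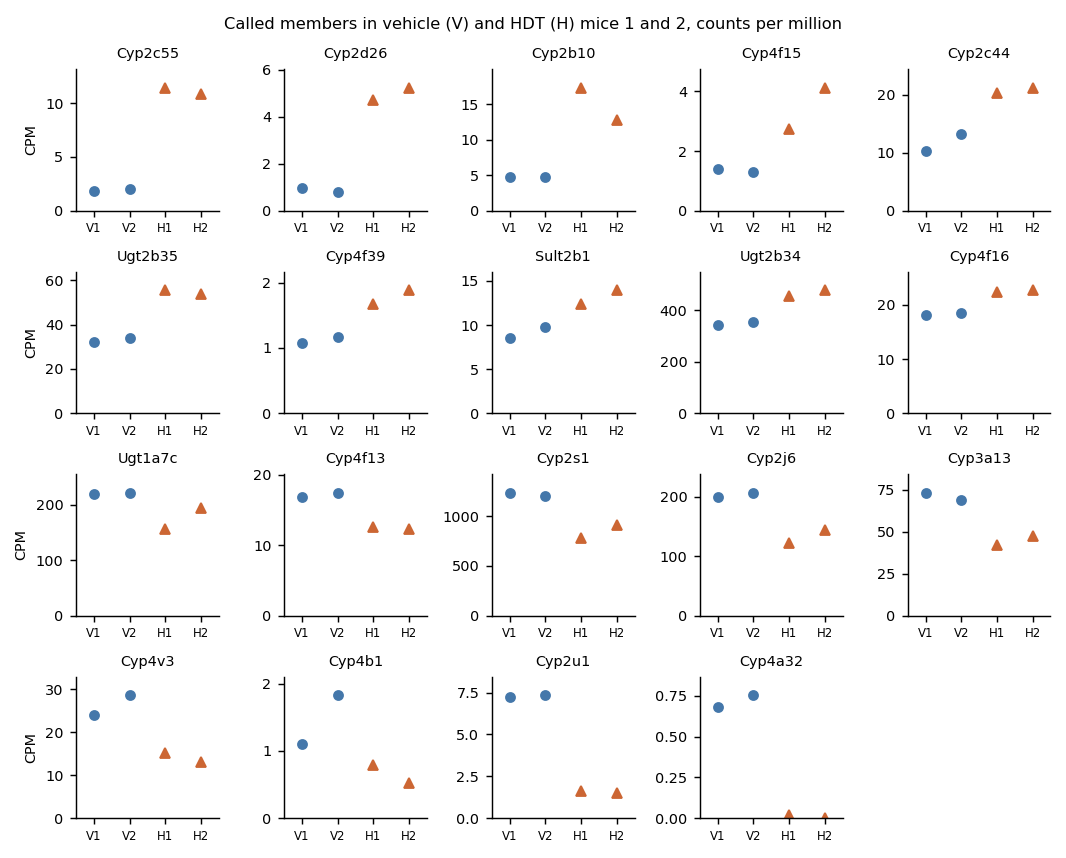
Level of each of the 19 called genes in each library, in CPM on axes that start at 0, with circles for the 2 vehicle mice and triangles for the 2 HDT mice. For every gene shown, both HDT mice lie on the same side of both vehicle mice.

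Of the 3 tested Ugt2 genes, 2 rose and 1 was not called. Ugt2b34 (chromosome 5, 86889767 to 86906937), by far the most abundant of them, was at 345 and 357 CPM in vehicle and 457 and 479 CPM in HDT. The gap between the groups was larger than that within either, a log2 fold change of 0.41 (SE 0.06, limma adjusted p = 0.0016). Ugt2b35 (87000860 to 87013275) was at 32.3, 34.0, 55.5 and 53.6 CPM, again with separate groups (log2 fold change 0.72, SE 0.07, limma adjusted p = 0.00012). Both enzymes glucuronidate steroids and other lipophilic compounds as a family, and both calls held without any 1 mouse and at every scaling. Ugt2a3 in the same cluster was at 2.90, 3.28, 1.46 and 2.58 CPM (log2 fold change −0.66, limma adjusted p = 0.093). Both HDT libraries were below both vehicle libraries, and it was called lower without HDT replicate 2. The family sum went from 387 ± 9.67 to 525 ± 14.9 CPM (SD, n = 2), and of the other Ugt2 genes 2 were listed at 0 and 4 had fewer than 10 reads in each library.

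The Ugt1 locus needs its structure to be read. Each Ugt1a gene has a first exon of its own, which sets the substrate, and all 9 are spliced to the same later exons, which encode the part that binds UDP-glucuronic acid. In GENCODE M21 all 9 share the coding exons at 88215044 to 88215175, 88215795 to 88215882 and 88216138 to 88216357 of chromosome 1. The joins are shown 5′ to 3′ to make clear what part of a transcript tells the genes apart: 30 bases of the gene's own first exon in lower case, then 30 bases of the shared second exon in capitals.
Ugt1a10: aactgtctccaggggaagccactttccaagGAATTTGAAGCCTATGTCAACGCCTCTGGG
Ugt1a9: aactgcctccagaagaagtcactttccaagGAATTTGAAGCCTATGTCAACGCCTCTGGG
Ugt1a8: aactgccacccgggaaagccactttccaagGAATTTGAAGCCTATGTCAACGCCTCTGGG
Ugt1a7c: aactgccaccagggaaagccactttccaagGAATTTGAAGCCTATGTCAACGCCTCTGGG
Ugt1a6a: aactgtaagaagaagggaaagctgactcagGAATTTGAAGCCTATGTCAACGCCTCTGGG
Ugt1a2: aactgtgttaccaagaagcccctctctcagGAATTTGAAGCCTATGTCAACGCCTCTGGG
Ugt1a1: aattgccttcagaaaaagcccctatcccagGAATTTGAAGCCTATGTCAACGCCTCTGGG
Ugt1a6b has the same 60 bases as Ugt1a6a, and Ugt1a5 the same as Ugt1a2. A read from the capitals onward fits all 9 genes.

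The counts carried this sharing. In library order, Ugt1a2, Ugt1a5, Ugt1a8 and Ugt1a10 had 4812 to 4815 reads, 4739 reads, 5242 reads and 6356 to 6358 reads. Such near-identical values in 4 genes leave almost no reads for their own first exons, and the values of the 9 genes are not 9 measurements. As CPM the common value was 137 and 138 in vehicle and 102 and 126 in HDT, taken from Ugt1a10. The HDT mice were lower and further apart, and the log2 fold change of −0.28 was not called (limma adjusted p = 0.065). The 9 fold changes ran from −0.34 to −0.14 with 1 call, that of Ugt1a7c, which was lost without vehicle replicate 1 (−0.35, adjusted p = 0.093) or vehicle replicate 2 (−0.34, 0.1). Without HDT replicate 2 all 9 were called lower, for example Ugt1a2 at −0.43 (limma adjusted p = 0.0018), whereas at the deposited scaling 8 of 9 were called higher, with a median of 0.26.

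Reads beyond this common value come closer to single genes, though not all of them can be assigned to a single gene. Ugt1a7c had 2945, 2910, 2804 and 3435 reads more than the lowest Ugt1a gene of each library, or 84.1 ± 0.591 CPM against 61.3 ± 9.58 CPM after HDT (SD, n = 2). Both HDT mice were below both vehicle mice, a log2 ratio of −0.46. For Ugt1a6a, which conjugates simple phenols, the excess was 1265, 1206, 2101 and 2308 reads, or 35.5 ± 0.649 and 43.3 ± 3.45 CPM, and both HDT mice were above both vehicle mice (log2 ratio 0.29). Their gene models share further exon bases, so part of either excess may belong to the other. The Ugt1a7c model also ends at 88220002, past the other Ugt1a models, which end at 88218997 to 88219004. Reads of any Ugt1a transcript that runs into that stretch would count for Ugt1a7c, and their part in its excess was not tested. Ugt1a1, which conjugates bilirubin, had an excess of 43, 54, 82 and 157 reads, or 1.39 ± 0.245 and 2.35 ± 1.07 CPM. Its exons overlap the antisense gene Gm20528 by 922 bases, and those of the other Ugt1a genes overlap it by 394 to 534 bases. Gm20528 had 2578, 2612, 2960 and 3618 reads, and the strand setting of the counting is not given in the sources used here. Reads of Gm20528 may thus be part of the common value and of the fold change of every Ugt1a gene, which was not tested. The differences in excess reads were not tested either, since they are subtractions between counts that share reads.

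**Figure D4:**
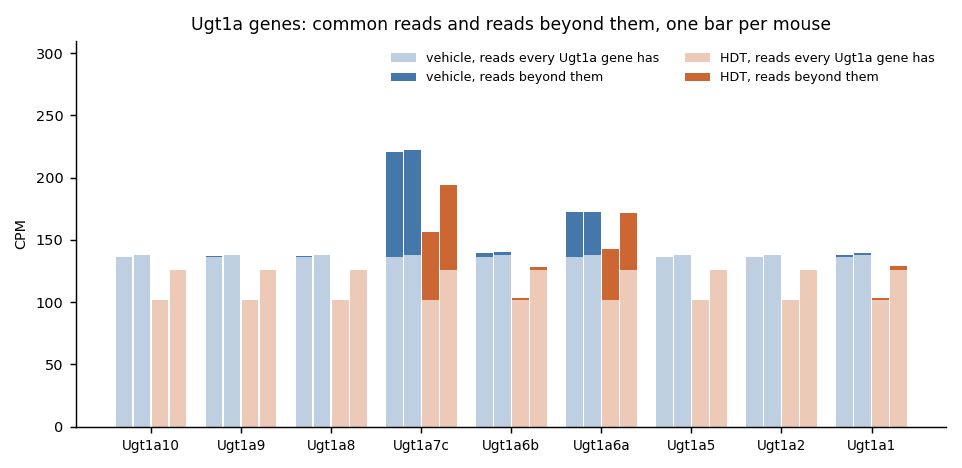
Level of the 9 Ugt1a genes in CPM, with 1 bar per mouse, split into the level of the lowest of the 9 genes (pale) and the part beyond it (dark). Only Ugt1a7c and Ugt1a6a stand clearly above the pale part, with 2804 to 3435 and 1206 to 2308 further reads.

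Most tested sulfotransferases were without a call, with 14.3% called against 37.7% of all tested genes. Of 21 genes 7 were tested, of which 1 rose and 6 were not called, and at the deposited scaling 4 were called higher. Sult1c2, the highest of them, was at 452, 457, 418 and 448 CPM (log2 fold change −0.07, limma adjusted p = 0.43). Sult1b1, which acts on phenols and thyroid hormones, was at 196.5, 187, 190.1 and 209 CPM (log2 fold change 0.06, limma adjusted p = 0.57). Its groups overlapped, and those of Sult1c2 were separated by less than the gap between the HDT mice. Sult1d1, which sulfonates dopamine and other catechols, was at 189.9, 175.5, 143.8 and 169.7 CPM (log2 fold change −0.22, limma adjusted p = 0.083), and was called lower without HDT replicate 2, at −0.34 (adjusted p = 0.0084). Sult2b1, a cholesterol sulfotransferase (chromosome 7, 45729983 to 45784669), rose from 8.52 and 9.76 CPM to 12.4 and 13.9 CPM, a log2 fold change of 0.53 (SE 0.11, limma adjusted p = 0.0075). It overlaps Lmtk3 on the opposite strand by 243 exon bases, and Lmtk3 had 43, 31, 47 and 52 reads. Sult1e1, the oestrogen sulfotransferase, had 9, 1, 1 and 1 reads. The SULT genes summed to 846 ± 12.9 CPM in the vehicle mice and 809 ± 54.7 CPM in the HDT mice (SD, n = 2), a log2 ratio of −0.07 that was 0.47 at the deposited scaling.

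Genes that serve these enzymes moved in both directions, as did all tested genes. Of all tested genes 18.4% rose and 19.3% fell, and at the deposited scaling 62.8% rose and 5.46% fell. The counts of calls for the lists below are to be read beside these shares. Of 10 tested genes listed for the supply of conjugation cofactors, not all of which make or carry a cofactor, 4 rose and 1 fell. At the deposited scaling 9 rose and 1 was not called. Ugp2, which makes UDP-glucose, was at 203, 214, 350 and 346 CPM (log2 fold change 0.74, limma adjusted p = 8e-05). Ugdh, which oxidises UDP-glucose to UDP-glucuronic acid, was at 468, 471, 661 and 798 CPM (log2 fold change 0.63, limma adjusted p = 0.0014). Slc35d1, which carries UDP-glucuronic acid into the endoplasmic reticulum, was at 28.0, 29.4, 35.9 and 42.8 CPM (log2 fold change 0.45, limma adjusted p = 0.0062). For these 3 genes the groups were separate and the calls held without any 1 mouse. The sulfate carrier Slc26a2 rose by 0.21 (limma adjusted p = 0.041), a call kept only without HDT replicate 1 and lost without the others at 0.16 to 0.25 (adjusted p = 0.088 to 0.26). Papss1 and Papss2, which make the sulfate donor, were not called, at log2 fold changes of −0.04 and −0.21 (limma adjusted p = 0.67 and 0.059). The nucleotide carrier Slc35b1 fell by 0.53 on the log2 scale (limma adjusted p = 0.00056), and stood at 0.00 at the deposited scaling.

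Of the 8 tested electron donors and haem-binding partners of P450 enzymes, 3 fell and 1 rose, whereas at the deposited scaling all 8 were called higher. The reductase Por was at 186.5, 192, 144 and 157 CPM (log2 fold change −0.33, limma adjusted p = 0.0055). Both HDT mice were below both vehicle mice, and the call was lost without vehicle replicate 2 (−0.31, adjusted p = 0.051). The haem-binding partners Pgrmc1 and Pgrmc2 fell by 0.27 and 0.26 (limma adjusted p = 0.014 and 0.012), and both calls were also lost without vehicle replicate 2 (−0.23, adjusted p = 0.13, and −0.24, adjusted p = 0.08). All 3 had log2 fold changes above 0 at the deposited scaling, at 0.20, 0.26 and 0.27. Cytochrome b5 type B (Cyb5b) rose by 0.23 (limma adjusted p = 0.041), a call kept only without HDT replicate 2 and lost without the others at 0.15 to 0.31 (adjusted p = 0.058 to 0.35). Of 13 genes that make or break down haem, 4 rose and 6 fell, with 1 or 2 rises and 3 to 5 falls when any 1 mouse was left out, and 10 rises and 1 fall at the deposited scaling.

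Of the 16 tested receptors and regulators, 2 rose, 2 fell and 12 were not called, with 1 to 3 rises and 2 to 4 falls when a mouse was left out. At the deposited scaling 9 rose and 1 fell. AHR itself was at 21.1, 25.3, 23.7 and 23.6 CPM (log2 fold change 0.04, limma adjusted p = 0.79). Its feedback target Tiparp fell, at 32.2, 27.8, 17.1 and 17.0 CPM, a log2 fold change of −0.81 (SE 0.09, limma adjusted p = 0.00029), and it was also lower at the deposited scaling. Nr1i3, which encodes CAR, was at 36.4, 36.5, 28.9 and 25.3 CPM, a log2 fold change of −0.43 (limma adjusted p = 0.0042) that was 0.10 at the deposited scaling. Nfe2l2, which encodes NRF2, was at 463, 491, 622 and 630 CPM (log2 fold change 0.39, limma adjusted p = 0.0025), a call lost without vehicle replicate 1 (0.35, adjusted p = 0.061). Its inhibitor Keap1 rose by 0.24 (limma adjusted p = 0.024), a call kept only without vehicle replicate 1 and lost without the others at 0.19 to 0.24 (adjusted p = 0.063 to 0.17). The groups of Ahr overlapped, and those of the 4 called genes did not.

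Other enzymes of drug handling were also measured. Of 11 tested genes that split esters, epoxides and conjugates, 4 rose and 3 fell, and the falls numbered 5 without HDT replicate 2 and 2 without vehicle replicate 2. At the deposited scaling 6 of the 11 rose and 5 were not called. Gusb, which takes glucuronic acid off again, was at 31.1, 32.7, 60.7 and 53.0 CPM (log2 fold change 0.83, limma adjusted p = 0.00017). The carboxylesterase gene Ces1g was at 1.65, 1.51, 11.3 and 10.6 CPM (log2 fold change 2.78, limma adjusted p = 7.4e-06). Of 8 other drug oxidases 2 fell and 6 were not called. The falls numbered 1 without vehicle replicate 2 or HDT replicate 1, the rises 1 without vehicle replicate 1 and 2 without HDT replicate 1, and the deposited scaling gave 4 rises and 1 fall. Aox3 was at 3.69, 5.34, 0.797 and 0.931 CPM (log2 fold change −2.34, limma adjusted p = 0.00017). Of 10 tested P450 genes for sterols, retinoids and vitamin D 2 rose and 8 were not called. The rises numbered 1 without vehicle replicate 2 or either HDT mouse, 1 gene fell without vehicle replicate 1 or HDT replicate 2, and the deposited scaling gave 6 rises and 4 genes without a call. The genes named in these sentences, Gusb, Ces1g and Aox3, were chosen after their values were seen.

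**Figure D5:**
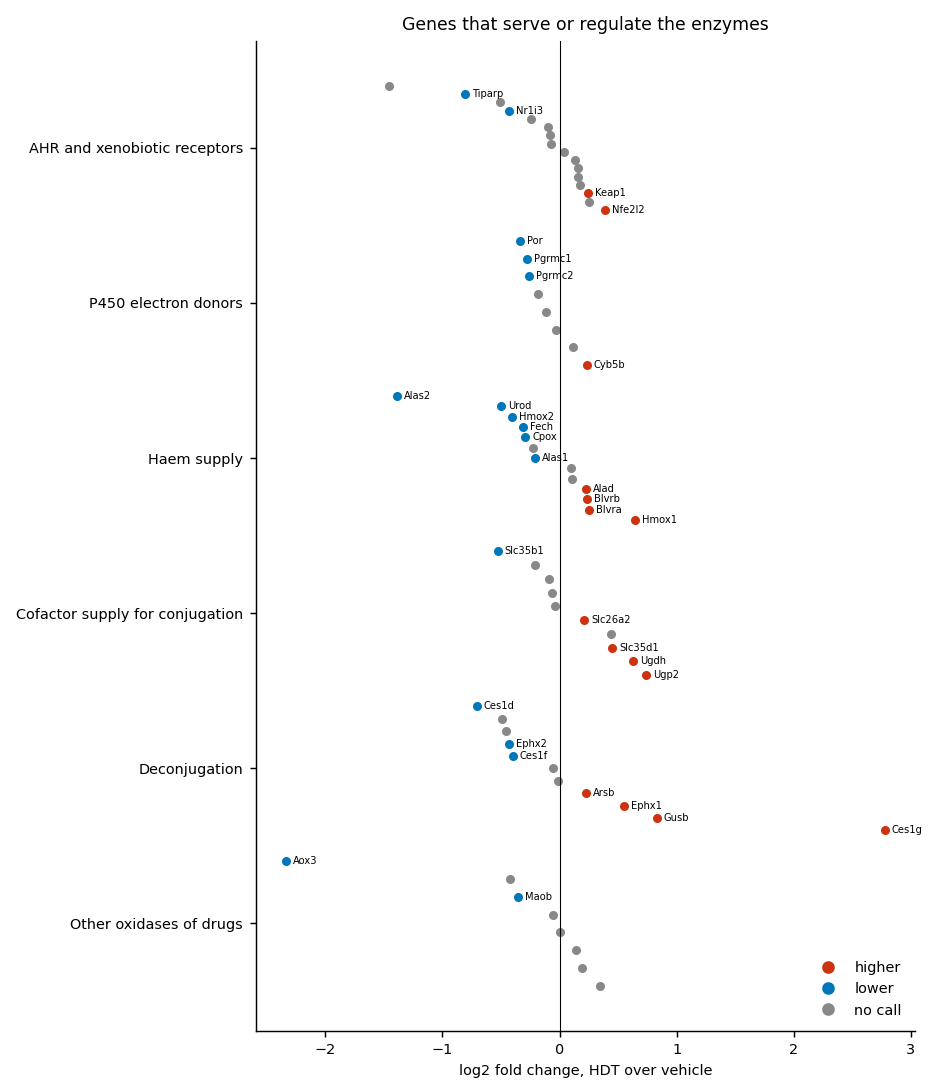
Log2 fold change of HDT over vehicle for genes that regulate, supply or complement the enzymes, by list, with each called gene named. Cofactor genes Ugp2 and Ugdh lie to the right of 0. In the list labelled P450 electron donors, the reductase Por and the haem-binding partners Pgrmc1 and Pgrmc2 lie to the left.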

How the data were processed

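The submitters' processing notes name edgeR, featureCounts (Subread 2.0.0), STAR 2.7.1a, and the builds mm10 and GRCm38, in no stated order. For annotation, strand, multi-overlap setting and normalization, nothing is given in the sources used here. The 1 table the authors deposited holds a signal, whole reads times a constant per library. Dividing by it (1.1381, 1.12, 1.1192 and 1.1128) gave whole reads for 100% of values within 0.01. The members and lists were chosen with earlier results of these data known. Genes were filtered with edgeR 4.0.16's filterByExpr on these reads, which left 18285 genes. Signal was TMM-scaled (factors 0.848, 0.818, 1.22 and 1.183), a pseudocount of 1 (0.89 reads) was added, and groups were compared on log2 values with limma 3.58.1 (trend, robust, two-sided, Benjamini-Hochberg over all tested genes, 0.05). Fold changes are thus on the log2(value + 1) scale, which understates those of low genes, and the test measures the spread between 2 mice per group with a median of 5.86 prior degrees of freedom. Alternatives were other scalings, pseudocounts and filters, edgeR and DESeq2 1.42.0 on the recovered reads, the replicate block and leaving out each mouse. The named genes were called members that reached 1 CPM in their higher group, the 10 highest per length and 7 fixed genes. Called regulators, electron donors and haem-binding partners of P450 enzymes, and cofactor genes were named as well. Cyp4a32 and other genes outside this rule were named after their values were seen. Exon lengths, positions and junctions came from GENCODE M21 and promoters from RefSeq. The fit was also run on simulated counts in which far fewer genes changed than were called here, so that run does not give the error rate for these data.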

Additional observations from a re-analysis of the deposited data

How the results depend on the processing

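The 10 rises and 9 falls were the same 19 genes with pseudocounts of 0.5 and 5 and with edgeR's test, and DESeq2 size factors and upper-quartile scaling added only Cyp2c65. DESeq2's test kept 17, losing Cyp4b1 and Cyp4f39, and the filter of 1 CPM in 2 libraries left Cyp4a32 and Cyp4b1 untested. Leaving out each mouse in turn gave 8 to 11 rises and 8 to 20 falls, where 20 was without HDT replicate 2 (17.7% of all genes then fell). The replicate numbers only share a number (correlation of deviations −0.142), and with the replicate block 16 of the 19 calls were kept, with 8 rises and 9 falls. Pairing the numbers crosswise, an alternative added after seeing the data, gave 12 rises and 21 falls, against 22.9% and 23.7% of all genes. Added likewise, leaving out genes whose exons overlap another gene gave 8 rises and 5 falls, and counting the Ugt1a genes as 1 locus gave 10 and 8. As deposited, without TMM, 25 rose and 3 fell. At that scaling these log2 fold changes turned to values above 0: Cyp1b1 0.046, Cyp4f13 0.071, Sult1c2 0.46, Sult1d1 0.307, Ugt1a1 0.271, Ugt1a2 and Ugt1a5 0.257, Ugt1a7c 0.188, Ugt1a9 0.256, Nr1i3 0.101, Pgrmc1 0.258, Pgrmc2 0.27, Por 0.199 and Slc35b1 0.004. The log2 ratios of the summed levels turned to 0.265 for Cyp2, 0.298 for Cyp4 and 0.466 for Sult. For Ugt1, where the level of Ugt1a10 stood in for a sum, the ratio turned to 0.263. Sult1b1 lay between −0.013 without HDT replicate 2 and 0.124 without HDT replicate 1. With 2 mice per group and depth unable to separate shared Ugt1a reads, small changes could not be resolved, and genes under 10 reads could not be compared.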

Other observations

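Among the genes beside the drug-metabolising families, all chosen after their values were seen, Cyp27b1, which makes the active form of vitamin D, was at 1.17, 1.31, 3.40 and 3.15 CPM (log2 fold change 1.39, limma adjusted p = 0.00071). Hmox1, which breaks down haem, was at 15.6, 13.1, 20.7 and 24.3 CPM (log2 fold change 0.64, limma adjusted p = 0.0035). Ephx1, the epoxide hydrolase of the endoplasmic reticulum, was at 61.9, 63.1, 98.1 and 85.0 CPM (log2 fold change 0.55, limma adjusted p = 0.0011), while the soluble epoxide hydrolase Ephx2, which opens epoxides of fatty acids, was at 119, 116, 81.3 and 93.2 CPM (log2 fold change −0.43, limma adjusted p = 0.0032, and 0.10 as deposited). In each of the 4 genes the groups were separate, and the 4 calls held without any 1 mouse.

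Of the 24 pseudogene rows left out, 7 had reads and 2 were tested. Cyp2d37-ps had 169, 159, 193 and 284 reads and was at 4.80, 4.62, 3.75 and 5.63 CPM (log2 fold change −0.03, limma adjusted p = 0.91). Cyp4f41-ps, of the Cyp4f group, had 7, 5, 20 and 25 reads and was at 0.199, 0.145, 0.389 and 0.495 CPM (log2 fold change 1.27, limma adjusted p = 0.043).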
